A study of Homo sapiens with 4 samples.

Results

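The 10 genes examined here restrain MAPK signalling from within, and their transcripts were measured in LNCaP cells: the dual-specificity phosphatases DUSP1, DUSP4, DUSP5, DUSP6 and DUSP10, the Sprouty genes SPRY1, SPRY2 and SPRY4, and the Sprouty-related genes SPRED1 and SPRED2. They were taken by name from the 60675 annotated genes of the count files, as members of a known pathway, and all 10 were found. LNCaP is an androgen-responsive human prostate cancer line. All cultures received 1 nM R1881, a synthetic androgen, for 72 h, in medium with hormone-depleted serum. In 2 cultures the androgen was given with vehicle (DMSO) and in 2 with 50 µM CPI-455, an inhibitor of the KDM5 family of histone H3 lysine 4 demethylases. There were no libraries without androgen, so the comparison is of androgen with and without the inhibitor, in 1 cell line.

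Growth factor receptors signal through RAS to the kinases RAF, MEK and ERK, and ERK in turn switches on genes whose products shut the pathway down. DUSP proteins remove the activating phosphates from MAP kinases, some acting on ERK and others mainly on the stress kinases p38 and JNK. Sprouty proteins act upstream, at the receptor and RAS, and SPRED proteins bring the RAS-inactivating protein neurofibromin to the membrane. Because most of these genes are themselves induced by ERK, their transcripts are often read as a sign of pathway output.

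Counted fragments per library ranged from 19623553 to 20690819 with vehicle and were 9522920 and 5401588 with CPI-455, so low genes were measured less precisely with the inhibitor. After normalization, 3 counts corresponded to 0.137 to 0.142 counts-per-million units (CPM) with vehicle and to 0.337 and 0.595 CPM with CPI-455. The cultures are described as biological replicates, with 2 per group. All 10 luminal prostate markers examined were detected in every library. Their summed level was 937 to 1012 CPM in vehicle cells against 393 to 444 CPM under CPI-455. KLK3 held 404 and 357 CPM of the vehicle sum and 107 and 136 CPM of the CPI-455 sum. Of the 10, 7 were called lower, FOXA1 among them, beside 24.4% of protein-coding genes tested. KLK2 went the other way, from 84.2 and 64.4 to 108 and 111 CPM. Its log2 fold change of 0.56 (FDR = 0.00833 from edgeR's quasi-likelihood test) did not reach 2-fold. Of 8 markers of other cell types, KRT5 was at 0 counts in every library, PTPRC had 8 counts in 1 CPI-455 library and 0 in the others. COL1A1, a fibroblast collagen gene, was called higher (4.97 and 4.03 to 10.1 and 7.73 CPM, log2 fold change 1.00), and CHGA, a neuroendocrine gene, was called lower (5.68 and 6.23 to 1.80 and 3.17 CPM, log2 fold change -1.32). Both calls were lost without vehicle replicate 1 (1.13 and -1.37), without vehicle replicate 2 (0.82 and -1.24) and without CPI-455 replicate 1 (0.76 and -0.93). With DESeq2 neither gene was called (1.01 and -1.27). The other marker of each type went the opposite way. COL3A1, a fibroblast gene, had 4 and 6 counts with vehicle and 0 in each CPI-455 library, and was not tested. SYP, a neuroendocrine gene, went from 3.93 and 5.31 to 8.77 and 5.95 CPM (log2 fold change 0.69) and was not called. The summed level of the 8 markers was 15.1 to 15.9 CPM in vehicle cells against 18.0 to 21.6 CPM under CPI-455. The part of these shifts in the results was not tested. In bulk RNA, fewer cells of a type and less RNA per cell cannot be told apart, and every fold change is relative to the other genes of a library.

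The promoter sequences of 2 of the 3 members whose expression changed, DUSP1 and SPRED1, are shown. For the other, DUSP4, no promoter sequence was available in the set used. The sequences are those of RefSeq on GRCh38.p14, 250 bases upstream of the transcription start and read 5′ to 3′ on the strand of the gene. DUSP1 lies on the reverse strand (chr5:172771196-172771445) and SPRED1 on the forward strand (chr15:38252586-38252835). The annotation used for counting starts SPRED1 earlier, at 38252326, so there the SPRED1 sequence shown lies inside the gene. Capitals mark exact matches, on either strand, to the elements searched.
DUSP1: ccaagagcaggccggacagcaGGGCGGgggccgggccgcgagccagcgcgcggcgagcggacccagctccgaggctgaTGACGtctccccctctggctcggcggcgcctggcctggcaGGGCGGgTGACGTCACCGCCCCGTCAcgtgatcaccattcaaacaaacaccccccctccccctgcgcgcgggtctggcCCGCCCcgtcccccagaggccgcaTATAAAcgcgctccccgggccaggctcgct
SPRED1: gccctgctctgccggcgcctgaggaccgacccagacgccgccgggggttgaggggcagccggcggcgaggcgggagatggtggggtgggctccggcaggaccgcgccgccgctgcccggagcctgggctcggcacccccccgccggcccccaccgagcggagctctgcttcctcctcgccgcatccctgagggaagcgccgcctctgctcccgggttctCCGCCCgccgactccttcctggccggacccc
The elements were searched as exact letters on both strands in windows of 300 bases, reaching 50 bases past the start. The full cyclic AMP response element, TGACGTCA, began at position -125 of DUSP1, counted from the start site, and was present in 1.85% of 35116 promoter windows. Its shorter core, TGACG, which the full element contains on both strands, was present in 24.6% of all windows and matched at 2 further places in the DUSP1 window, at positions -172 and -111. A TATA box, TATAAA, began at position -30 of DUSP1, and 11.5% of windows held one. The GC box bound by SP and KLF factors, GGGCGG, was found at 4 places in the DUSP1 window and at 1 place in that of SPRED1, at position -31, and was present in 45.0% of windows. The SPRED1 window held no match to the full or short cyclic AMP response element, the TATA box, the ETS core CCGGAA (17.3% of windows) or the heat shock element GAANNTTC (6.77%). A window was matched for 8 of the 10 members, with 13 windows in all, and DUSP4 and DUSP5 had none. A TATA box was also found in a window of SPRED2, and the ETS core in windows of SPRY1 and SPRY2. The short element TGACG was also found in windows of DUSP10, SPRED2 and SPRY2, which were not called, and of SPRY4, which was not tested. The GC box was also found in windows of DUSP10, SPRED2, SPRY1, SPRY2 and SPRY4.

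The comparison asked how adding CPI-455 to androgen altered transcript levels. The 10 genes did not move together. Expression of DUSP1 rose, expression of DUSP4 and SPRED1 fell, and 5 genes (DUSP5, DUSP10, SPRY1, SPRY2 and SPRED2) did not pass the test. DUSP6 and SPRY4 were too low to be tested. A gene was called when its change was at least 2-fold with a false discovery rate (FDR, Benjamini-Hochberg over all 17600 genes tested) below 0.05 in edgeR's quasi-likelihood test. Of the 8 members tested, 3 were called, beside 42.4% of all genes tested. By direction 2 were called lower and 1 higher, whereas 21.3% of all genes tested were called lower and 21.0% higher. Among the 13813 protein-coding genes tested the shares were 24.4% lower and 15.6% higher. The share of members called was thus near the background in each direction. The median log2 fold change (CPI-455 over vehicle) of the 8 tested members was -0.25, beside -0.21 for protein-coding genes and -0.04 for all genes tested.

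**Figure D1:**
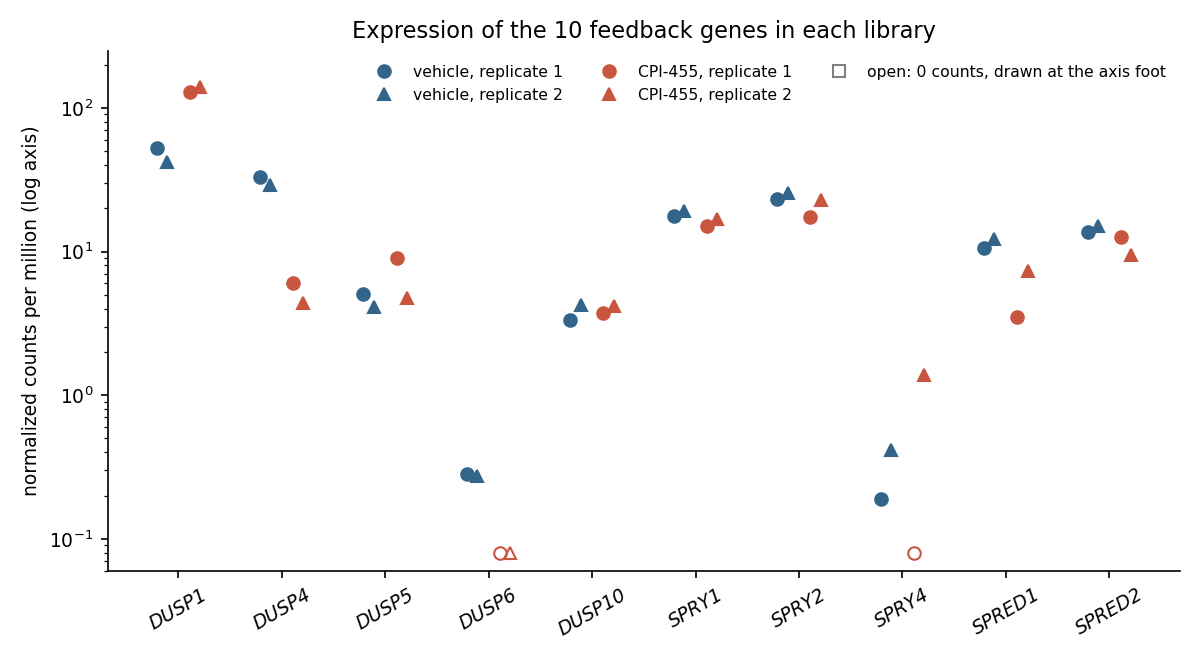
Normalized CPM (log axis) of each of the 10 genes in each of the 4 libraries, with circles for replicate 1, triangles for replicate 2 and open symbols at the foot of the axis for 0 counts. DUSP1 stood at 42.3 to 53.0 CPM in vehicle cells and 129 to 140 CPM under CPI-455, while DUSP4 stood at 29.2 to 33.0 and 4.36 to 6.07 CPM.

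DUSP1 encodes a nuclear phosphatase that acts on p38 and JNK as well as ERK and is an early responder to growth factors and stress. It is ENSG00000120129 in the files and lies on chromosome 5 (GRCh38), from 172768090 to 172771195, in 4 exon blocks that overlap no other annotated gene. The vehicle libraries held 1119 and 924 fragments of DUSP1, and the CPI-455 libraries, of much lower depth, 1143 and 705. In normalized terms these were 53.0 and 42.3 CPM in vehicle cells against 129 and 140 CPM under CPI-455. Both CPI-455 libraries lay well above both vehicle libraries. Mean expression rose from 47.6 ± 7.54 (SD, n = 2) to 134 ± 7.96 CPM (SD, n = 2), a log2 fold change of 1.49 (standard error 0.14, 95% interval 1.17 to 1.81, FDR = 2.06e-05 from edgeR's quasi-likelihood test), or 2.81-fold. This was the 2866th largest rise among the genes tested, so a rise of this size was not rare in these libraries. DUSP1 was called higher in all 16 alternative settings, with log2 fold changes of 1.17 to 1.67.

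DUSP4 encodes a nuclear phosphatase for ERK and JNK and is often used as a marker of ERK output. It is ENSG00000120875 and lies on chromosome 8 from 29333064 to 29350668. The vehicle libraries held 696 and 638 fragments of it and the CPI-455 libraries 54 and 22. Normalized expression was 33.0 and 29.2 CPM in vehicle cells against 6.07 and 4.36 CPM under CPI-455, so the groups were far apart. The mean fell from 31.1 ± 2.64 (SD, n = 2) to 5.22 ± 1.21 CPM (SD, n = 2), 5.79-fold lower. The log2 fold change was -2.53 (standard error 0.23, 95% interval -3.06 to -2.00, FDR = 1.68e-05 from edgeR's quasi-likelihood test), the 778th largest fall of the genes tested. DUSP4 was called lower in all 16 alternative settings, with values of -2.85 to -2.31.

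The remaining phosphatases were lowly expressed. DUSP5, a nuclear phosphatase specific for ERK, had 5.07 and 4.12 CPM in vehicle cells against 8.996 and 4.76 CPM under CPI-455. Its second CPI-455 library lay within the vehicle range, and its log2 fold change of 0.62 (95% interval -0.22 to 1.46) did not pass the test (FDR = 0.173 from edgeR's quasi-likelihood test). The value was 0.03 without CPI-455 replicate 1 and 0.93 without CPI-455 replicate 2, where the FDR was 0.00166 in edgeR's quasi-likelihood test but the change still under 2-fold. DUSP10, which acts on JNK and p38, had 3.36 and 4.21 CPM in vehicle cells against 3.71 and 4.16 CPM under CPI-455. These ranges overlapped entirely, with a log2 fold change of 0.05 and a 95% interval of -0.82 to 0.91, so a change of somewhat under 2-fold in either direction could not be detected at this depth. DUSP6, the cytoplasmic ERK phosphatase, had 6 counts in each vehicle library and 0 in each CPI-455 library. The vehicle level of 0.284 and 0.275 CPM was below the 3-count limit of the CPI-455 libraries, so a fall could not be detected. Of the exon bases of DUSP6, 40.5% are shared with a gene on the opposite strand, ENSG00000274021, and fragments there would not have been counted.

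No Sprouty gene passed the test. SPRY2, an inhibitor of receptor tyrosine kinase signalling, was the highest of them, at 23.3 and 25.5 CPM in vehicle cells against 17.4 and 23.0 CPM under CPI-455. The higher CPI-455 library reached to just under the vehicle range, and the log2 fold change of -0.29 (95% interval -0.74 to 0.16) did not pass the test (FDR = 0.232 from edgeR's quasi-likelihood test). It was -0.10 without CPI-455 replicate 1 and -0.53 without CPI-455 replicate 2, the latter with an FDR of 0.00419 in edgeR's quasi-likelihood test. SPRY1, which acts in the same way, had 17.7 and 19.0 CPM in vehicle cells against 15.2 and 16.9 CPM under CPI-455. Its log2 fold change was -0.20, with an interval of -0.65 to 0.25 (FDR = 0.399 from edgeR's quasi-likelihood test), so the interval left out a 2-fold change in either direction, as did that of SPRY2. With the length and GC trend removed the value of SPRY1 was just above 0, at 0.026. For SPRY4 the vehicle libraries held 4 and 9 fragments and the CPI-455 libraries 0 and 7, close to the limit of detection in each group.

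SPRED1 was called and SPRED2 was not, but the difference between them was not tested. SPRED1 is ENSG00000166068, on chromosome 15 from 38252326 to 38357249. It had 10.6 and 12.2 CPM in vehicle cells against 3.49 and 7.34 CPM under CPI-455, so both inhibitor libraries lay below both vehicle libraries but were apart from each other by more than the vehicle libraries. Its mean fell from 11.4 ± 1.15 (SD, n = 2) to 5.41 ± 2.72 CPM (SD, n = 2). Its log2 fold change was -1.14 (standard error 0.35, 95% interval -1.94 to -0.35, FDR = 0.0185 from edgeR's quasi-likelihood test), 2.21-fold lower. This call was the least secure of the 3. It was kept in 10 of 16 alternative settings, and was lost without CPI-455 replicate 1 (log2 fold change -0.65), without vehicle replicate 2 (-1.02), with upper-quartile scaling (-0.96) and with the length and GC trend removed (-0.60), which takes from each gene the change usual for its exon length and GC content. It was lost in a test against a 2-fold change (glmTreat) too, and without CPI-455 replicate 2 the change was -1.75. SPRED1 has long, AT-rich exons, with 8260 exon bases at 39.0% GC, the longest and the lowest in GC of the 10 genes. SPRED2 had 13.7 and 15.0 CPM in vehicle cells against 12.7 and 9.52 CPM under CPI-455, and its log2 fold change of -0.35 (95% interval -0.88 to 0.19) did not pass the test (FDR = 0.233 from edgeR's quasi-likelihood test). Without CPI-455 replicate 1 it was -0.61, with an FDR of 0.0250 in edgeR's quasi-likelihood test.

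**Figure D2:**
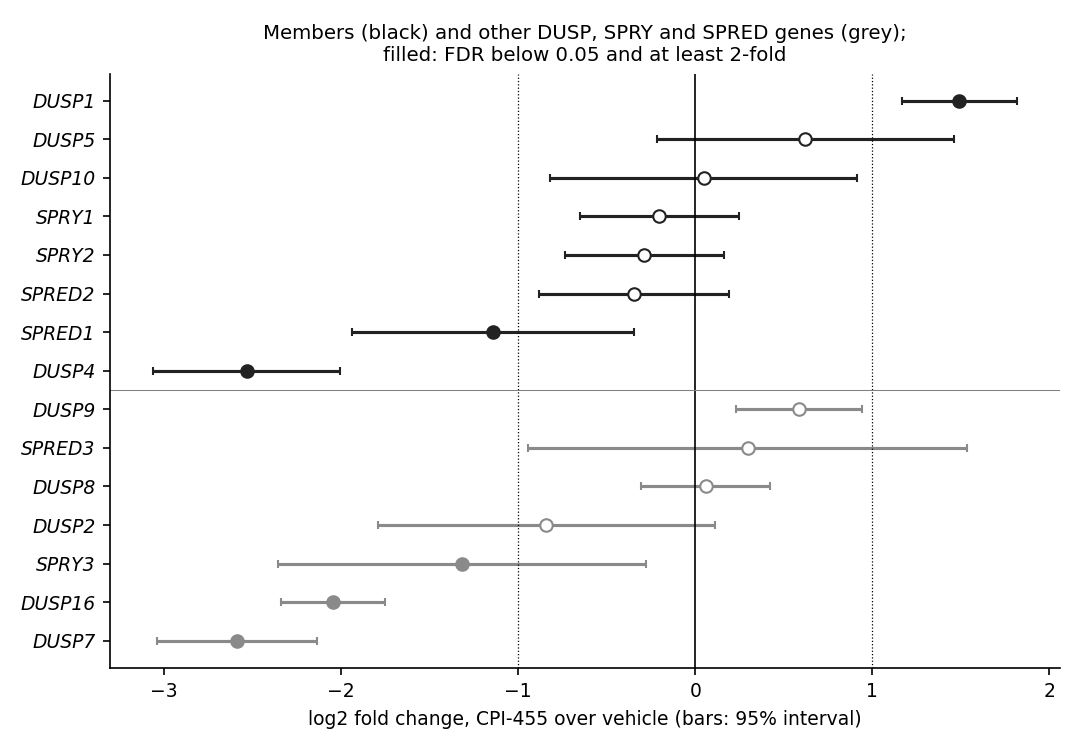
Log2 fold change (CPI-455 over vehicle) with its 95% interval from edgeR for the 8 tested members (black) and the 7 other DUSP, SPRY and SPRED genes (grey), with filled points for called genes and dotted lines at a 2-fold change. The interval of DUSP1 (1.17 to 1.81) and that of DUSP4 (-3.06 to -2.00) lie beyond the dotted lines, and that of SPRED1 crosses one.

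Together the 10 genes took 160.1 and 152 CPM in vehicle cells against 196 and 211 CPM under CPI-455. DUSP1 alone made up 33.1% and 27.8% of this sum in vehicle cells and 65.5% and 66.2% under CPI-455. Without DUSP1, the sum was 107 and 109.9 CPM in vehicle cells against 67.6 and 71.4 CPM under CPI-455, so the higher total with the inhibitor came from DUSP1. The SPRY genes summed to 41.2 and 44.9 CPM in vehicle cells against 32.6 and 41.2 CPM under CPI-455, which overlapped at the precision given.

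Levels of different genes were compared per exon length (RPKM, which is CPM divided by exon length in kilobases). With vehicle the order was DUSP1 (21.0 and 26.2 RPKM), SPRY2 (7.67 and 8.40), SPRY1, DUSP4 (4.03 and 4.54), SPRED2, DUSP5, SPRED1 and DUSP10. The library ranges of SPRY1 and DUSP4 overlapped, as did those of SPRED1 and DUSP10, so these neighbours did not differ beyond their spread. With CPI-455 the order was DUSP1 (63.7 and 69.2 RPKM), SPRY2 (5.74 and 7.57), SPRY1, DUSP5, SPRED2, DUSP10, DUSP4 (0.601 and 0.837) and SPRED1 (0.422 and 0.888). DUSP5 and SPRED2 could not be separated here, nor could DUSP4 and SPRED1. DUSP4 thus moved from the 4th to the 7th place of the 8, and among all genes tested its level moved from rank 8582 to rank 14474. DUSP1 moved from rank 1932 to rank 562.

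**Figure D3:**
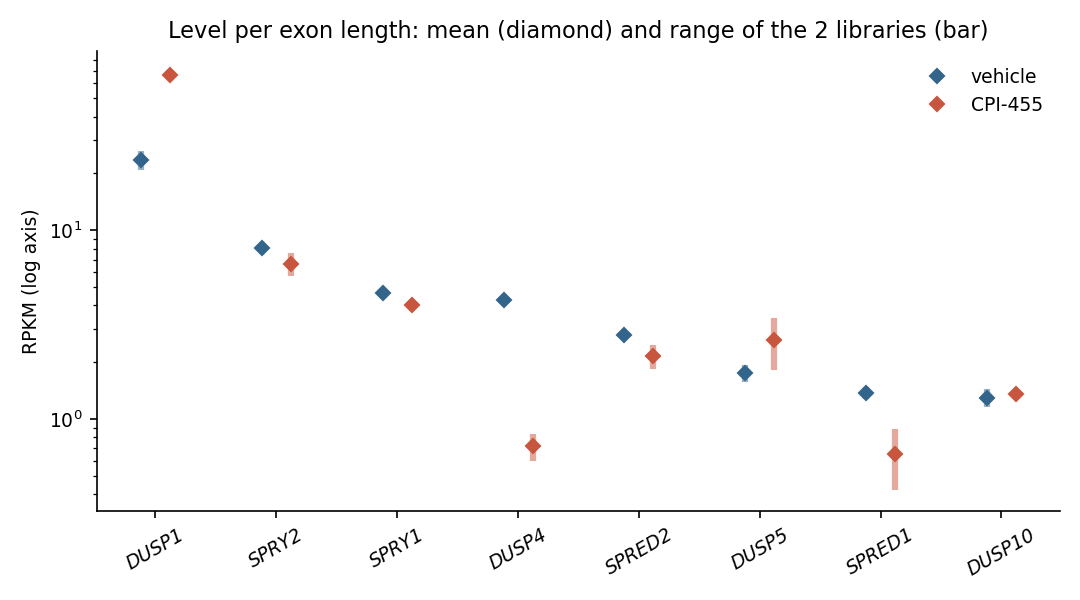
RPKM (log axis) of the 8 tested members in the order of their vehicle level, with a diamond for the mean and a bar for the range of the 2 libraries in each group. DUSP1 lay above the other 7 genes in both groups, and DUSP4 dropped from 4.28 to 0.719 RPKM on average.

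Other genes of the same families were examined from a list. Of the 7 (DUSP2, DUSP7, DUSP8, DUSP9, DUSP16, SPRY3 and SPRED3), 3 were called lower and none higher, and their median change was -0.84 on the log2 scale. The calls among protein-coding genes tested were 24.4% lower and 15.6% higher. At an FDR below 0.05 of any size, which 62.6% of all genes tested reached, 4 of the 7 passed, as did 3 of the 8 tested members. DUSP7, a cytoplasmic ERK phosphatase related to DUSP6, had 51.0 and 55.0 CPM in vehicle cells against 7.53 and 10.5 CPM under CPI-455, a log2 fold change of -2.59 (FDR = 6.02e-06 from edgeR's quasi-likelihood test). DUSP16, which acts mainly on JNK, fell from 158 and 157 to 40.6 and 35.1 CPM (log2 fold change -2.05, FDR = 2.20e-06 from edgeR's quasi-likelihood test). Both were called lower in all 16 alternative settings. In vehicle cells DUSP16 was at 27.5 RPKM in each library, just above DUSP1 per exon length, and in CPI-455 cells at 7.09 and 6.13 RPKM. SPRY3 was also called lower, from 5.07 and 6.87 to 3.26 and 1.19 CPM (log2 fold change -1.32, FDR = 0.0312 from edgeR's quasi-likelihood test), but the call was kept in 7 of 15 alternative settings. Without vehicle replicate 1, vehicle replicate 2 or CPI-455 replicate 2 it was lost (log2 fold changes -1.60, -1.17 and -0.91), and without CPI-455 replicate 1 the change was -2.34. DUSP9, another cytoplasmic ERK phosphatase, was higher by 0.59 on the log2 scale (23.8 and 23.5 to 34.9 and 36.3 CPM, FDR = 0.00944 from edgeR's quasi-likelihood test) and so did not reach the 2-fold threshold. DUSP8 (log2 fold change 0.06) and SPRED3 (0.30) did not pass the test. DUSP2 did not pass it either (log2 fold change -0.84, 95% interval -1.79 to 0.11), and was called without CPI-455 replicate 1 (-1.20) and with the length and GC trend removed (-1.32).

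Of 11 other brakes on RAS and ERK signalling, the test called 4 lower and 1 higher, around a median change of -0.43 on the log2 scale. Among protein-coding genes tested, 24.4% were called lower and 15.6% higher. The RAS GTPase-activating genes RASAL2 and DAB2IP fell, with log2 fold changes of -1.51 and -1.25. CBL, the ubiquitin ligase that directs receptor degradation, and LRIG1, a transmembrane inhibitor of receptor tyrosine kinases, fell by 1.47 and 1.30 on the log2 scale. LRIG1 shares 12.9% of its exon bases with SLC25A26. LZTR1, which targets RAS proteins for degradation, rose from 67.1 and 54.3 to 176 and 153 CPM (log2 fold change 1.44, FDR = 2.37e-05 from edgeR's quasi-likelihood test). For NF1, the neurofibromin gene whose product SPRED proteins recruit, the values were 127 and 130.2 CPM in vehicle cells against 113 and 116 CPM under CPI-455, and it did not pass the test.

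The 18 genes of the RAS and ERK cascade had a median change of -0.65 on the log2 scale. Of these, 6 were called lower and none higher, beside 24.4% and 15.6% of protein-coding genes tested. An FDR below 0.05 was reached by 13 of them, beside 62.6% of all genes tested. The largest falls were those of the receptor adaptor FRS2 (log2 fold change -2.41), the RAS exchange factors SOS1 (-2.15) and SOS2 (-1.75), and NRAS (-1.85). With the length and GC trend removed, their changes in the same order were smaller, at -1.86, -1.58, -1.22 and -1.42. Each was still called there, and 5 genes of the list were called lower. The change of SOS1 was -1.85 without CPI-455 replicate 2 and -2.76 without CPI-455 replicate 1. No kinase of the ERK module, from RAF to ERK, was called. MAPK3, which encodes ERK1, had 80.2 and 87.5 CPM in vehicle cells against 114 and 94.8 CPM under CPI-455 (log2 fold change 0.32, FDR = 0.0600 from edgeR's quasi-likelihood test).

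Among 11 genes of the p38 and JNK cascade, whose kinases DUSP1 and DUSP10 dephosphorylate, 3 were called higher and 2 lower. The shares of protein-coding genes tested were 15.6% higher and 24.4% lower. MAPK12 and MAPK11, which encode p38 gamma and p38 beta, rose. MAPK12 had 55.6 and 43.2 CPM in vehicle cells against 241 and 187 CPM under CPI-455, a log2 fold change of 2.12 (FDR = 6.78e-06 from edgeR's quasi-likelihood test). Of the exon bases of MAPK12, 29.3% are shared with HDAC10, and fragments there would not have been counted. MAPK11 had a log2 fold change of 1.80 (FDR = 1.13e-04 from edgeR's quasi-likelihood test). MAPK14, which encodes p38 alpha, fell from 66.8 and 69.9 to 29.2 and 31.1 CPM (log2 fold change -1.18, FDR = 7.70e-05 from edgeR's quasi-likelihood test), and with the length and GC trend removed its change was under 2-fold (-0.72). MAPK13, encoding p38 delta, was called higher (1.14) and the kinase gene MAP2K3 lower (-1.03). The call of MAPK13 was kept in 11 of 16 alternative settings and lost, among others, without either vehicle library (1.27 and 0.97 without replicates 1 and 2) and with library totals only (0.95). That of MAP2K3 was kept in 12 of 16 and lost, among others, without CPI-455 replicate 2 (-0.94) and with upper-quartile scaling (-0.85).

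**Figure D4:**
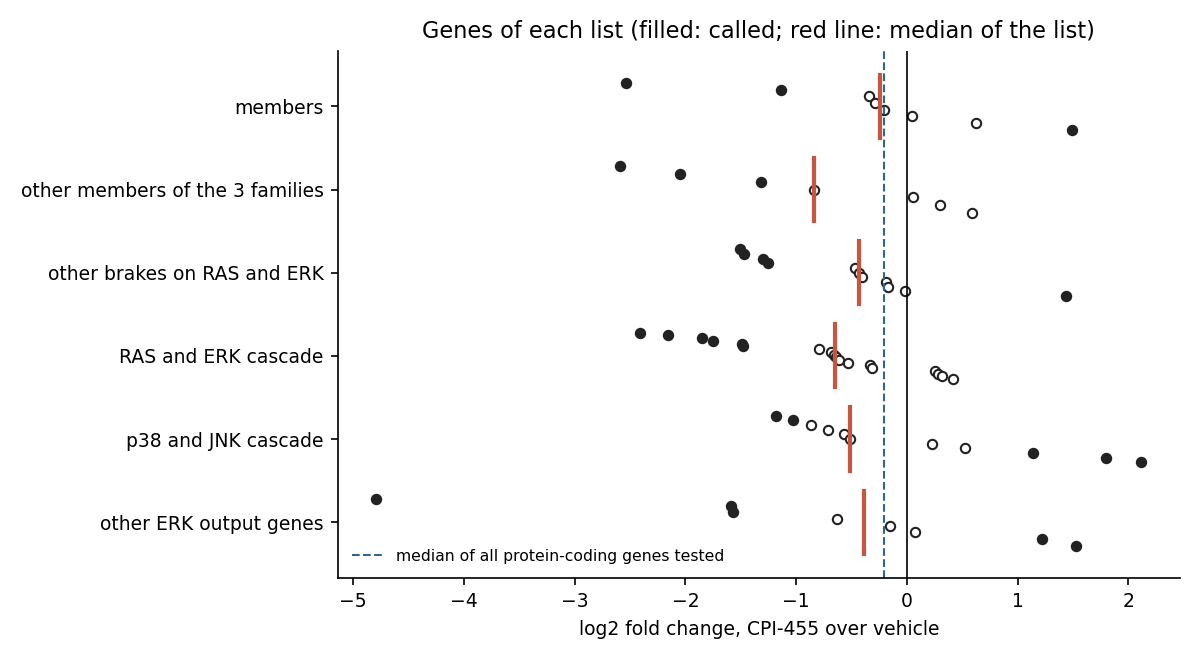
Log2 fold change (CPI-455 over vehicle) of each tested gene in 6 lists, with filled points for called genes, a red line for the median of a list and a dashed line for the median of all protein-coding genes tested (-0.21). Members spread to both sides (-2.53 to 1.49), as did the p38 and JNK genes (-1.18 to 2.12), while no called gene of the RAS and ERK cascade lay to the right.

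Other genes known as transcriptional outputs of ERK were also divided. Of 10 listed, 8 were tested, and 3 were called lower and 2 higher, beside 24.4% and 15.6% of protein-coding genes tested. EGR1, an immediate-early transcription factor, had 829 and 446 fragments in vehicle libraries and 11 and 4 in those of CPI-455, which is 39.2 and 20.4 CPM against 1.24 and 0.793 CPM (log2 fold change -4.79, FDR = 2.01e-05 from edgeR's quasi-likelihood test). CCND1, encoding cyclin D1, fell from 45.5 and 40.0 to 14.6 and 13.7 CPM (log2 fold change -1.59); of its exon bases 10.3% are shared with LTO1. FOS rose from 22.9 and 10.8 to 33.5 and 45.4 CPM, with a log2 fold change of 1.22 that was below 2-fold without vehicle replicate 2 (0.75) or without CPI-455 replicate 2 (0.95), and 1.85 without vehicle replicate 1. IER3, an early response gene, rose from 3.50 and 3.21 to 10.1 and 9.12 CPM (log2 fold change 1.52), and its change was 0.85 with the length and GC trend removed. Of its exon bases 26.5% are shared with IER3-AS1. ETV5 was called lower (log2 fold change -1.57, FDR = 0.0484 from edgeR's quasi-likelihood test) on 48 and 45 fragments in vehicle libraries and 6 and 4 in those of CPI-455, a call kept in 4 of 15 alternative settings. It was lost without vehicle replicate 1 (-1.51), vehicle replicate 2 (-1.65) or CPI-455 replicate 1 (-1.46). DUSP1, FOS and EGR1 were each higher in vehicle replicate 1 than in vehicle replicate 2, at 53.0 against 42.3 CPM, 22.9 against 10.8 CPM and 39.2 against 20.4 CPM. DUSP4 showed the same order, and SPRY1 and SPRY2 the opposite. Under CPI-455, DUSP1 and FOS were higher in replicate 2 and EGR1 in replicate 1.

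**Figure D5:**
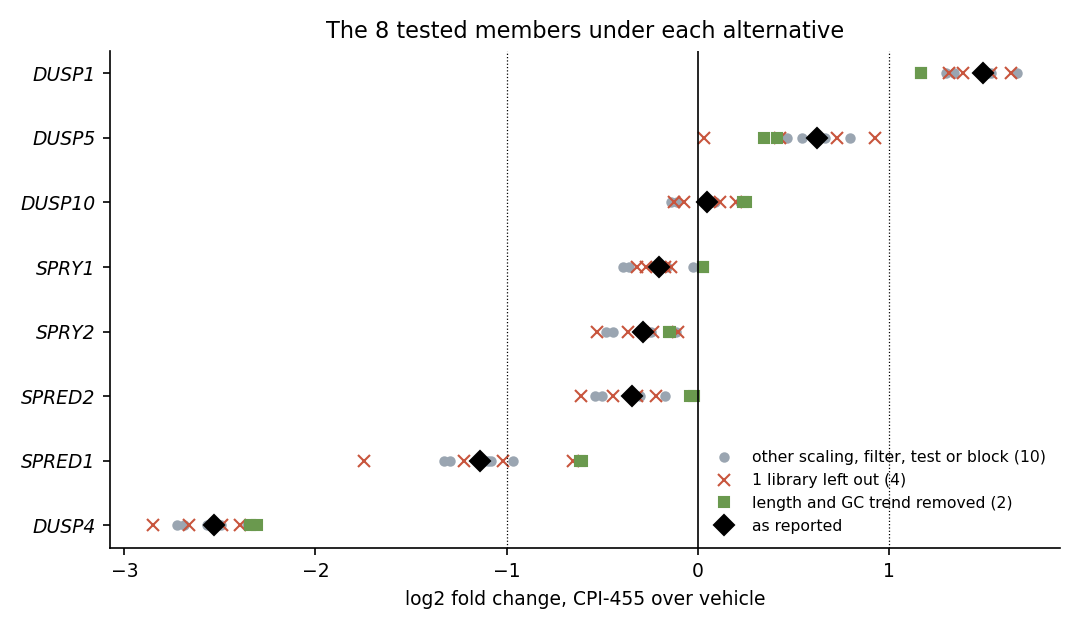
Log2 fold change (CPI-455 over vehicle) of the 8 tested members as reported (black diamonds) and under 16 alternative settings, with dotted lines at a 2-fold change. DUSP1 stays right of the line at 1 and DUSP4 left of the line at -1 in every setting, while SPRED1 ranges from -1.75 to -0.60.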

How the data were processed

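RNA of 4 LNCaP cultures was sequenced. The authors trimmed reads with TrimGalore, used STAR for alignment to GRCh38, and obtained exon fragment totals with featureCounts (v1.5.0-p1, Ensembl 83 annotation). The deposited values are raw counts per gene and library. Per the file headers strand was not used, and fragments matching several places or genes were left out. How RNA was selected is not given in the sources used here, and the DMSO concentration differs between the labels and the methods.

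Symbols were matched for 56558 of 60675 genes in a reference table, and biotypes came from GENCODE. Here the groups were compared with edgeR 4.0.16 in R 4.3.3 (TMM, filterByExpr at a minimum of 10 counts, glmQLFit and glmQLFTest, no covariates). This fit was also run on simulated data in which few genes changed. That simulation could not show how the fit behaves where 42.4% of genes tested are called, as here. CPM and RPKM use TMM-scaled library sizes (factors 1.08 and 1.06 with vehicle, 0.936 in each CPI-455 library) and the exon length in the files. Intervals are at 95% from the standard error, with 9.26 degrees of freedom. The 3-count limits cover counting error only.

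All members and the other family genes are named. Elsewhere, up to 4 calls per list and direction are named, taken by size of change. NF1, MAPK3, the overlapping LTO1, HDAC10, IER3-AS1 and SLC25A26, KRT5 and PTPRC were named after their values were seen. So were COL3A1, SYP, KLK2 and KLK3. The members and lists were chosen with earlier results of these data known. Alternatives were RLE, upper-quartile, library totals, TMM without mitochondrially encoded genes and MALAT1, no filter, at least 10 counts in every library, DESeq2 1.42.0, a likelihood-ratio test, glmTreat, a replicate block, a length and GC trend (mgcv 1.9.3) with and without the block, and each library left out. Some listed genes and elements are not reported here.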

Additional observations from a re-analysis of the deposited data

How the results depend on the processing

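With 2 libraries per group and CPI-455 libraries of lower depth, DUSP6 and SPRY4 could not be compared. Leaving out a library leaves 1 in its group, which edgeR assumes to vary like the others. Of the 8 tested members, 2 were called lower as reported, and 1 (DUSP4) with upper-quartile scaling, with glmTreat and with the length and GC trend removed, with or without the block; the cause was not tested. With each library left out in turn, 1 to 2 were called lower and 2 to 5 had an FDR below 0.05 (3 as reported). The number called higher was 1 (DUSP1) in all 16 alternatives.

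Directions that turned were those of genes that did not pass the test. DUSP10 (0.05 as reported) was at -0.14 with library totals only, -0.11 with no filter and -0.13 to 0.20 with a library left out. SPRY1 was at 0.026 with the trend removed and 0.030 with the block as well. DUSP8 was at -0.13 with library totals only, -0.10 with no filter, -0.019 with the trend removed, -0.025 with the block as well, and -0.16 to 0.17 with a library left out. SPRED3 was at -0.60 to 0.91 with a library left out. The median of all genes shifted by 0.18 with upper-quartile scaling, by -0.19 with library totals and by 0.11 with the trend removed.

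Replicate numbers are shared between the groups in the labels. Deviations of same-numbered libraries had a correlation of 0.0496 across genes. With 2 libraries per group, this value cannot show whether same-numbered cultures were paired. With the replicate block, 2 members were called lower and 1 higher, and across all genes 3745 were called lower and 3422 higher, beside 3756 and 3698 without it.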
